A study of Homo sapiens with 6 samples.

Results

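A set of 10 genes that describe how cells hold together and how an epithelium loosens was examined in H9 hESCs (an established human embryonic stem cell line) and in the neuromesodermal progenitor-like (NMP-L) cells made from them. They were chosen by name and not by a cut-off on measured values, although earlier results of these data were known: the cadherins CDH1, CDH2 and CDH3, the epithelial adhesion molecule EPCAM, the intermediate filament protein VIM, and the transcription factors SNAI1, SNAI2, TWIST1, ZEB1 and ZEB2. All 10 have a row among the 27672 genes of the deposited table. Polyadenylated RNA was sequenced in 3 biological replicates of each condition, as single-end reads of 76 bp. The hESC libraries (day 0) came from untreated H9 cells, which the labels place without feeder cells in DEF medium with bFGF at 30 ng/ml and Noggin at 10 ng/ml, on plates coated with fibronectin. The NMP-L libraries (day 3) came from H9 cells kept for 3 days in N2/B27 medium with bFGF at 20 ng/ml and CHIR99021, an inhibitor of GSK3 that activates Wnt signalling, at 3 µM. The study's methods instead keep hESCs in TESR medium on Geltrex and also add Noggin and SB431542, which block BMP and TGFβ signalling, from before the day on which NMP-L cells are collected. The labels of the NMP-L libraries name neither inhibitor. Both conditions derive from 1 cell line without genetic change, and medium, time and cell state cannot be told apart in this design.

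Cadherins are calcium-dependent adhesion proteins whose cytoplasmic tails bind catenins and, through them, actin. E-cadherin (CDH1) joins epithelial cells, whereas N-cadherin (CDH2) is the usual cadherin of mesoderm and neural tube. At gastrulation, cells that leave the epiblast undergo an epithelial-to-mesenchymal transition (EMT), in which factors of the SNAI, TWIST and ZEB families repress epithelial genes such as CDH1, many of them by binding E-box sequences, and CDH2 often takes the place of CDH1. Neuromesodermal progenitors lie in the caudal epiblast next to the primitive streak and give rise to both neural tube and paraxial mesoderm.

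The 6 libraries held from 19454543 to 23036426 expected counts each, and the floor of 3 counts was worth 0.125 to 0.16 CPM, the unit of TMM-scaled counts. Of the 15517 genes tested, 55.8% passed the test of the conditions (adjusted p below 0.05). Rises in NMP-L cells were 29.1% and falls 26.7% of the genes, so 52.1% of the calls were rises. This split rests on the scaling: 87.5% of the calls were rises relative to GAPDH counts and 25.3% relative to HPRT1 counts. The labelled cell types were borne out by most of their defining markers. Of 6 pluripotency markers 4 fell (summed level 6270 to 6500 TPM, a transcript abundance corrected for length and library total, in hESCs and 4110 to 4270 TPM in NMP-L cells), with POU5F1 still at 1099 to 1157 TPM in the NMP-L libraries, and of 6 NMP markers 5 rose (T, CDX1, CDX2, NKX1-2 and SP5), SOX2 being the remaining one. T, CDX1, CDX2 and SP5 had at most 6 counts in any hESC library. They passed the expression filter through their NMP-L libraries alone and could only have been called higher. In bulk RNA, fewer cells of a type and less RNA per cell cannot be told apart.

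N-cadherin transcripts rose 4.59-fold from hESCs to NMP-L cells, and P-cadherin transcripts fell. E-cadherin transcripts rose 1.21-fold, a small rise that was lost relative to HPRT1 counts. EPCAM rose and VIM fell. Among the transcription factors, ZEB2 went from near the detection floor to between 248 and 464 counts per library, SNAI2, TWIST1 and ZEB1 rose to much lower levels, and SNAI1 did not pass the test. An exchange of CDH1 for CDH2 was thus not seen in these bulk averages, as CDH2 rose while the CDH1 level did not fall. Whether some of the cells made such an exchange was not tested, because bulk RNA averages over all cells. In all, 7 of the 10 genes were called higher and 2 lower, beside 29.1% and 26.7% of all genes tested, but SNAI2, TWIST1, ZEB1 and ZEB2 passed the expression filter through their NMP-L libraries alone and could only have been called higher. Among the 6 genes over the filter in both conditions, CDH2 alone rose and VIM alone fell at least 2-fold, as did 9.38% and 9.18% of all genes tested. The libraries of the conditions did not overlap for 9 of the 10 genes, a property of 61.6% of all genes tested.

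**Figure D1:**
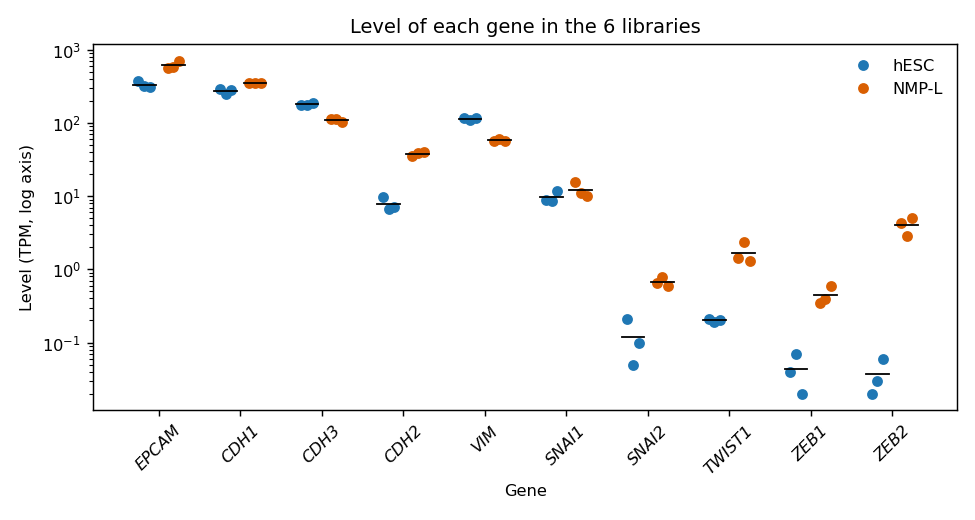
Level of each of the 10 genes in TPM (transcript abundance corrected for length, log axis) in the 3 hESC libraries (blue) and the 3 NMP-L libraries (orange), with horizontal lines at the means. Both CDH1 and CDH2 lie higher in NMP-L cells, CDH3 and VIM lie lower, ZEB2 moves from 0.0367 to 4.09 TPM on average, and the points of SNAI1 overlap.

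CDH1, on chromosome 16 of GRCh37 from 68771195 to 68869440, was measured at 293, 251 and 281 TPM in hESC replicates 1, 2 and 3 and at 356, 352 and 355 TPM in the NMP-L replicates. Every NMP-L library lay above every hESC library, and the NMP-L values lay closer together (354 ± 2.19 TPM against 275 ± 21.7 TPM; SD, n = 3 each). On the scale of TMM-scaled counts the rise was 1.21-fold (log2 fold change 0.27, standard error 0.07, edgeR adjusted p = 0.0071). This small rise depended on the scaling, as relative to HPRT1 counts the log2 fold change was -0.02 (adjusted p = 0.93) and relative to GAPDH counts 0.83. These reference genes moved the median of all genes by -0.30 and 0.56, and relative to the median gene CDH1 was higher by 0.24 with TMM, 0.25 with HPRT1 and 0.24 with GAPDH. A scaling moves every gene by nearly the same amount, so these values lie close by construction and are no separate support for the rise.

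CDH2, on chromosome 18 from 25512843 to 25757910, was measured at 9.64, 6.78 and 7.19 TPM in hESCs and at 35.8, 38.4 and 39.9 TPM after differentiation. The conditions were far apart relative to the spread within them, and the rise was 4.59-fold (log2 fold change 2.20, standard error 0.12, adjusted p = 6.3e-08). Across the alternatives tried the log2 value lay between 1.92 and 2.75. N-cadherin rises both in cells that enter mesoderm and in cells that enter the neural plate. Of 6 paraxial mesoderm markers (TBX6, MSGN1, MESP1, MESP2, MEOX1 and TCF15), TBX6 and TCF15 fell, MESP2 did not pass, and MSGN1, MESP1 and MEOX1 had too few counts to be tested. Their summed level was 14.4 to 18.1 TPM in hESCs and 6.38 to 8.56 TPM in NMP-L cells, and MEOX1 was at or under the floor of 3 counts in every library. Against the fall of that sum, MSGN1 had 0, 0 and 0 counts in hESCs and 7, 4 and 2 in NMP-L cells. MESP1 had 1, 0 and 4 counts in hESCs and 6, 8 and 5 in NMP-L cells. Of 6 neural progenitor markers SOX1 rose, from 7, 13 and 4 counts to 284, 197 and 274, while PAX6 had 1, 0 and 0 counts in the NMP-L libraries. The neural list summed to between 1.97 and 3.13 TPM in hESCs and between 6.68 and 8.27 TPM in NMP-L cells, with NEUROG2 and NKX6-1 at or under the floor throughout. PAX6, NEUROG2, OLIG2 and NKX6-1 had too few counts to be tested, and IRX3 did not pass. The part of cells with these markers in the rise of CDH2 was not tested.

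CDH3, which encodes P-cadherin and lies beside CDH1 on chromosome 16 (68670092 to 68761371), moved the other way from its neighbour. It was measured at 178, 177 and 189 TPM in hESCs and at 112, 112 and 103 TPM in NMP-L cells. All NMP-L libraries lay below all hESC libraries, and the gene was 1.77-fold lower (log2 fold change -0.83, standard error 0.08, adjusted p = 5.9e-06). It kept this direction and passed the test under every scaling tried, with log2 values between -1.13 and -0.27.

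The composition of the 3 cadherins within a library does not depend on scaling between libraries. In hESCs CDH1 made up 61.0%, 57.7% and 58.9% of their summed TPM, CDH3 37%, 40.8% and 39.6%, and CDH2 2.01%, 1.56% and 1.51%. In NMP-L cells the shares were 70.7%, 70.0% and 71.3% for CDH1, 22.2%, 22.3% and 20.7% for CDH3, and 7.11%, 7.64% and 8.03% for CDH2. No share overlapped between the conditions, and CDH1 and CDH2 both gained share as CDH3 lost it. CDH1 transcripts still outnumbered CDH2 transcripts by 9.33 ± 0.547 to 1 in NMP-L cells, against 35.5 ± 4.56 to 1 in hESCs (SD, n = 3). The log2 ratio of CDH2 to CDH1 moved from -5.14 ± 0.19 to -3.22 ± 0.08. The summed level of the 3 genes was 464 ± 25.3 TPM in hESCs and 501 ± 3.51 TPM in NMP-L cells.

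**Figure D2:**
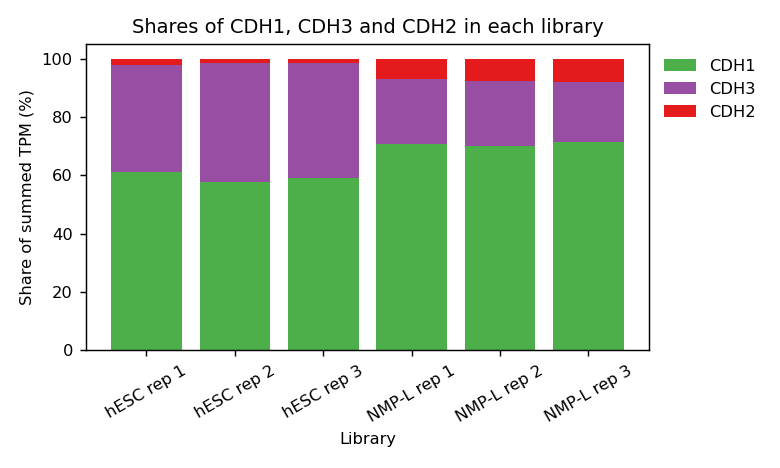
Share (%) of CDH1 (green), CDH3 (purple) and CDH2 (red) in the summed TPM of the 3 genes, 1 bar per library. The CDH2 share is at most 2.01% in hESCs and at least 7.11% in NMP-L cells, and the CDH1 share is larger in all NMP-L libraries.

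EPCAM, an epithelial adhesion protein that is also a common surface marker of human pluripotent cells, lies on chromosome 2 from 47572297 to 47614740. It had the highest level of the 10 genes in both conditions, with 371, 316 and 314 TPM in hESCs and 559, 579 and 712 TPM in NMP-L cells. NMP-L replicate 3 stood above the other two, and all NMP-L libraries lay above all hESC libraries. The rise was 1.72-fold (log2 fold change 0.79, standard error 0.09, adjusted p = 2.2e-05) and lay between 0.49 and 1.35 on the log2 scale across the alternatives.

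VIM encodes vimentin, an intermediate filament protein of mesenchymal cells and of many cultured cells, and lies on chromosome 10 from 17270240 to 17279592. Its level was 118, 109.6 and 118 TPM in hESCs and 57.1, 61.1 and 56.2 TPM in NMP-L cells. The replicates of each condition lay close together, and VIM was 2.12-fold lower in NMP-L cells (log2 fold change -1.08, standard error 0.08, adjusted p = 8.7e-07), passing the test in every alternative. Of 6 fibroblast markers, COL1A1 and THY1 fell too, from a summed level for the list of 515 to 567 TPM in hESCs to between 74.3 and 79.7 TPM in NMP-L cells. PDGFRB did not pass. LUM and DCN were at or under 3 counts in all 6 libraries and COL3A1 had at most 5, too few to be tested. The part of cells with these markers in the fall of VIM was not tested. VIM-AS1, which overlaps VIM on the opposite strand, had between 14 and 32 counts per library and was not called, beside VIM counts of 2229, 2231 and 2305 in hESCs and 1243, 1255 and 1239 in NMP-L cells.

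**Figure D3:**
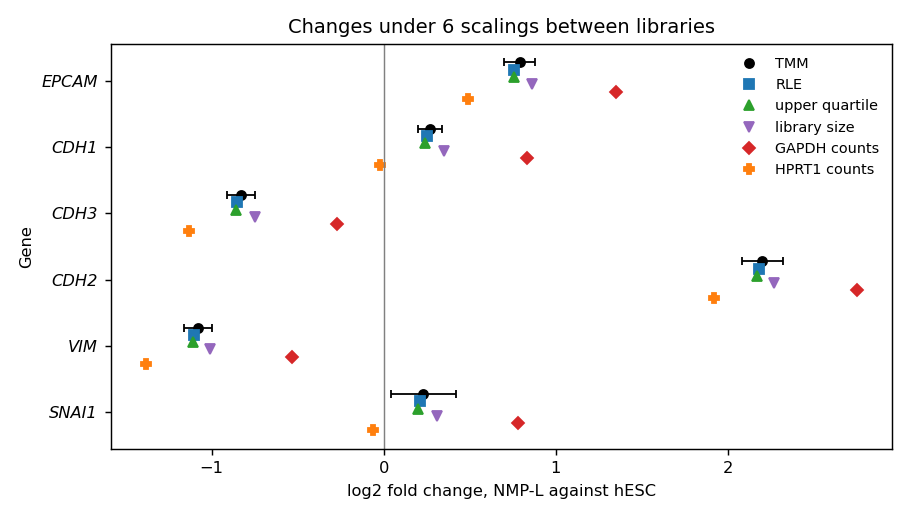
log2 fold change, NMP-L against hESC, of the 6 genes that were well above the filter in both conditions, under 6 scalings between libraries (symbols), with bars of 1 standard error on the TMM value. CDH2 and EPCAM stay above 0 and CDH3 and VIM below 0 throughout, whereas CDH1 and SNAI1 fall just below 0 when scaled to HPRT1 counts.

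ZEB2, a zinc finger and homeobox repressor that binds paired E-boxes and also acts in neural plate and neural crest, lies on chromosome 2 from 145121931 to 145278624. hESC replicates 1 to 3 held 2, 3 and 3 ZEB2 counts, whereas NMP-L replicates held 389, 248 and 464. The conditions lay far apart, while the NMP-L libraries differed among themselves and replicate 2 was lowest. The same library was lowest of the NMP-L libraries for the NMP markers T (537, 293 and 629 counts), CDX2 (522, 326 and 607) and CDX1 (312, 202 and 321), for FOXA2 (473, 264 and 535) and for SOX1, and it had the smallest NMP-L total (20687062). Without it the fitted log2 fold change of ZEB2 was 6.99 in place of 6.80, and none of the 10 genes changed its call. The part of this library's makeup in the spread of ZEB2 was not tested. The ratio of the pooled rates was 117, with an exact 95% interval from 59.4 to 273 that covers counting error only (edgeR adjusted p = 1.6e-08). In NMP-L cells ZEB2 reached 4.09 ± 1.14 TPM (SD, n = 3). ZEB2-AS1, on the opposite strand across the start of ZEB2, had at most 1 count in any library.

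ZEB1, the paralogue of ZEB2, lies on chromosome 10 from 31607424 to 31818742. hESC libraries held 2, 4 and 1 counts of it and NMP-L libraries 24, 24 and 37. Its libraries did not overlap and the ratio was 10.4 (95% interval 4.82 to 26.6, adjusted p = 6.7e-05), but the NMP-L level of 0.443 ± 0.129 TPM was the lowest of the 10 genes in that condition. ZEB1-AS1, a long noncoding RNA that overlaps the first part of ZEB1 on the opposite strand, had more counts than ZEB1 in every library, with 32, 33 and 28 in hESCs and 130, 114 and 179 in NMP-L cells (log2 fold change 1.95, standard error 0.19, adjusted p = 6.1e-06). As no source used here states whether strand was used in counting, the reads of these partners cannot be told apart with certainty.

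SNAI1 and SNAI2 encode the zinc finger repressors Snail and Slug. SNAI1, on chromosome 20 from 48599517 to 48605423, was already transcribed in hESCs, with 132, 139 and 181 counts, and had 267, 179 and 175 counts in NMP-L cells. The groups overlapped and NMP-L replicate 1 stood above the rest, and the difference did not pass the test (log2 fold change 0.23 with a standard error of 0.19, edgeR adjusted p = 0.32). Permuting the libraries exactly gave a two-sided p of 0.5. Without NMP-L replicate 1 the log2 value was 0.01, and relative to GAPDH counts it was 0.78 with an adjusted p of 0.0024. SNAI2 lies on chromosome 8 from 49830157 to 49834299. Its reads numbered 4, 1 and 2 before and 14, 16 and 13 after differentiation, a ratio of 5.24 (95% interval 2.34 to 13.8, adjusted p = 0.0018). The groups did not overlap, and the NMP-L level stayed below 1 TPM in all libraries.

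TWIST1, a basic helix-loop-helix factor of mesoderm and cranial mesenchyme, lies on chromosome 7 from 19060614 to 19157259. Each hESC library held 3 counts, and the NMP-L libraries held 24, 37 and 22, a ratio of 7.87 (95% interval 3.95 to 17.8, adjusted p = 1.4e-04). The NMP-L level was 1.69 ± 0.567 TPM. ZEB2, SNAI2 and TWIST1 are also genes of the neural crest. Of 6 neural crest markers SOX10, FOXD3 and ETS1 fell, beside 26.7% of all genes tested. PAX7 did not pass, and TFAP2A and PAX3 had too few counts to be tested, PAX3 being at or under the floor. The list lay at 36.7 to 40.3 TPM in hESCs and 8.46 to 10.2 TPM in NMP-L cells. FOXD3 held much of that fall, at 20.72, 19.15 and 24.33 TPM in hESCs and 0.81, 0.65 and 0.89 TPM in NMP-L cells. Of 6 endoderm markers FOXA2 and HHEX rose, with the list at 4.82 to 5.16 TPM in hESCs and 18.9 to 30.1 TPM in NMP-L cells and SOX17 and CER1 at or under the floor. SOX17, GATA4, GATA6 and CER1 had too few counts to be tested. FOXA2, with 0, 5 and 2 counts in hESCs, passed the filter through its NMP-L libraries alone and could only have been called higher. It held most of the NMP-L sum, at 19.04, 11.26 and 21.29 TPM. The part of cells with neural crest or endoderm markers in the rises of the factors was not tested.

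For each of the 9 genes whose libraries did not overlap, exact permutation of the libraries (two-sided, on log2 CPM) returned p = 0.1, below which 3 against 3 cannot go.

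Ordered by mean TPM, the hESC libraries ran EPCAM, CDH1, CDH3, VIM, SNAI1, CDH2, TWIST1, SNAI2, ZEB1 and ZEB2. Neighbours overlapped between libraries from SNAI1 to CDH2 and from TWIST1 down to ZEB2, so that the order within those stretches was not resolved. In NMP-L cells the order was EPCAM, CDH1, CDH3, VIM, CDH2, SNAI1, ZEB2, TWIST1, SNAI2 and ZEB1, with no overlap between neighbours. SNAI2 and ZEB1 were barely apart, with a lowest SNAI2 value of 0.60 TPM and a highest ZEB1 value of 0.59 TPM, both from few counts. The 4 adhesion and filament genes at the top kept their places, CDH2 passed SNAI1, and ZEB2 went from the lowest place to above the other 3 rising factors. Among all 27672 genes CDH2 moved from rank 9534 to rank 4112 by mean TPM, and ZEB2 from rank 18851 to rank 11620.

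Upstream sequences are shown for ZEB2 and CDH2, the factor with the largest ratio and the cadherin that rose most, and for ZEB1, the only matched gene that holds an E-box here. RefSeq promoter windows on GRCh38.p14 matched 4 of the 10 genes (CDH2, VIM, ZEB1 and ZEB2), and each sequence is the 250 bases before a listed start, read 5′ to 3′ on the strand of the gene. The letters searched were CAGGTG, the E-box bound by SNAI and ZEB factors, and CTTTGAT, a site of the Wnt effectors TCF and LEF, on both strands. Capitals mark a match to either, and none overlapped another.
ZEB2 (chr2:144520120-144520369, minus strand): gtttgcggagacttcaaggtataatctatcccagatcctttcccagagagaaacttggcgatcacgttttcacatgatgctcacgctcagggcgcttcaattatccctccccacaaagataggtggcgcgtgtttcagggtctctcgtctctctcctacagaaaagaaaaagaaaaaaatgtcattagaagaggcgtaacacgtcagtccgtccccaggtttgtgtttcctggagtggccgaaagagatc
CDH2 (chr18:28177131-28177380, minus strand): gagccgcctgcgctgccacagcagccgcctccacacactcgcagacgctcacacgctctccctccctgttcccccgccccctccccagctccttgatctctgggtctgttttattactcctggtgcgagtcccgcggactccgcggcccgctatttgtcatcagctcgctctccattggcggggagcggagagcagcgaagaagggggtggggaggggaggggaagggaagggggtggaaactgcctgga
ZEB1 (chr10:31318167-31318416, plus strand): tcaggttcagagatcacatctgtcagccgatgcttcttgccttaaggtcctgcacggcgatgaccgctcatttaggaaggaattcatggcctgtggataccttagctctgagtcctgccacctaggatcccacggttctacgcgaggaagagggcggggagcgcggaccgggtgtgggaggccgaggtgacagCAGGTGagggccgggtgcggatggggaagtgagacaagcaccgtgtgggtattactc
The E-box of this ZEB1 window begins 57 bases before the start. Of the 7 ZEB1 starts listed, 2 had an E-box in their window, while the ZEB2 start, both CDH2 starts and the VIM start had none. None of these windows held the TCF/LEF letters. Among all 35116 windows of this length, 17.5% held the E-box and 2.26% the TCF/LEF letters. The ZEB2 window was 48.0% G and C with 12 CpG pairs, the CDH2 window 66.0% with 17 and the ZEB1 window 59.2% with 15, against medians of 58.0% and 11 over all windows. A match is a run of letters and shows no binding.

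Other genes of the adhesion and EMT programme were described through 9 lists with 108 genes in all, of which 93 were tested. Of these, 19 (20.4%) rose and 41 (44.1%) fell, beside 29.1% and 26.7% of all genes tested, with the median of all tested genes at a log2 fold change of 0.03. The split depends on the scaling, with 47 higher and 17 lower relative to GAPDH counts and 8 higher relative to HPRT1 counts. Calls of single genes that end under one of these scalings are given with the value there.

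Of 15 other classical cadherins, 8 were tested, 2 rose, 2 fell (25.0% each, close to the shares of all genes) and 4 did not pass (median log2 fold change -0.11). CDH10, a type II cadherin known from brain, had 3, 2 and 5 counts in hESCs and 81, 76 and 125 in NMP-L cells, a ratio of 24.1 with a 95% counting interval from 12.9 to 50.7. It passed the filter through its NMP-L libraries alone and could only have been called higher, and with at least 10 counts required in every library 1 cadherin of the list was higher. CDH11, the type II cadherin of mesenchyme and osteoblasts, rose 1.40-fold, whereas CDH15, the muscle cadherin, fell 2.44-fold and CDH8 1.52-fold. The call of CDH11 ended relative to HPRT1 counts (log2 fold change 0.19, adjusted p = 0.48) and that of CDH8 relative to GAPDH counts (-0.05, adjusted p = 0.79). Among 13 catenins and other adherens junction proteins 3 (23.1%) rose and 6 (46.2%) fell (median -0.21). β-catenin (CTNNB1), which links cadherins to α-catenin and also carries the Wnt signal, was measured at 287 ± 7.77 TPM in hESCs and 384 ± 4.15 TPM in NMP-L cells (log2 fold change 0.30), its relative plakoglobin (JUP) at 40.5 ± 3.6 and 71.5 ± 6.9 TPM (0.72), and the nectin-binding protein AFDN rose by 0.25 on the log2 scale. The rises of CTNNB1, JUP and AFDN did not pass relative to HPRT1 counts, where CTNNB1 was at 0.00 (adjusted p = 0.99), JUP at 0.41 (adjusted p = 0.058) and AFDN at -0.05 (adjusted p = 0.86). AFDN also lost its call with the replicate number as a block (adjusted p = 0.051) and without hESC replicate 3 (adjusted p = 0.054). The fall was steepest for CTNNA2, the neuronal α-catenin (log2 fold change -1.91, standard error 0.17), and for NECTIN3 (-1.09, standard error 0.15), the latter at -0.52 relative to GAPDH counts (adjusted p = 0.055).

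Of 19 epithelial regulators and surface genes 5 (26.3%) rose, 7 (36.8%) fell and 7 did not pass (median -0.07). Relative to GAPDH counts this balance turned, with 12 higher and 1 lower. The rises were RAB25, a small GTPase of epithelial recycling endosomes (37.9, 40.95 and 47.0 TPM in hESCs and 107.6, 104.4 and 89.6 TPM in NMP-L cells, 2.22-fold), the membrane protease ST14 (2.02-fold), MARVELD2, a protein of tricellular tight junctions (1.86-fold), GRHL3 (1.81-fold) and the protease PRSS8 (1.3-fold). Relative to HPRT1 counts GRHL3 was at 0.55 (adjusted p = 0.062) and PRSS8 at 0.08 (adjusted p = 0.76). The epithelial splicing regulators differed, as ESRP1 was measured at 166, 137 and 151 TPM in hESCs and 143, 155 and 169 TPM in NMP-L cells (adjusted p = 0.49), while ESRP2 fell (log2 fold change -0.83, standard error 0.10). GRHL2, an activator of CDH1, had a log2 fold change of 0.22 that did not pass (adjusted p = 0.066).

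Mesenchymal genes fell more often than they rose, with 11 of 16 tested (68.8%) lower and 2 higher (median log2 fold change -0.69), against 26.7% of all genes lower. S100A4, a calcium-binding protein also called fibroblast-specific protein, fell 6.67-fold from 40.7 ± 2.98 to 6.52 ± 1.38 TPM, the gelatinase MMP9 fell 5.68-fold and THY1, a surface protein also present on human pluripotent cells, fell 4.89-fold. MMP2, the other gelatinase, rose 6.43-fold from 7.83 ± 0.656 to 54.2 ± 1.89 TPM (log2 fold change 2.69, standard error 0.11). Of the 9 other intermediate filament genes 3 (33.3%) rose and 4 (44.4%) fell (median -0.20). The muscle filament gene DES fell 4.43-fold and NES, the filament of neural progenitors, fell 1.40-fold from 160.0 ± 6.34 to 122 ± 8.97 TPM. NEFH and NEFM fell by 0.49 and 0.35 on the log2 scale. The neurofilament gene NEFL rose 2.91-fold, SYNM 1.87-fold and GFAP 1.72-fold. Relative to GAPDH counts the values of NES, NEFH and NEFM turned positive. NEFM also missed the threshold in limma on TPM (adjusted p = 0.12) and without NMP-L replicate 2 or 3, and GFAP relative to HPRT1 counts (0.51, adjusted p = 0.23), in DESeq2 (adjusted p = 0.059) and without hESC replicate 3 (adjusted p = 0.058).

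Among 12 other EMT transcription factors 7 were tested, of which TCF4 rose and PRRX2, SNAI3 and TCF3 (42.9%) fell (median -0.38). TCF4, an E-protein that pairs with TWIST factors, went from 29.2 ± 4.39 to 58.0 ± 7.22 TPM (log2 fold change 0.89). PRRX2, a homeobox gene of mesenchyme, fell 5.20-fold, SNAI3, the third SNAI gene, fell 2.75-fold from 10.8 ± 0.796 to 4.21 ± 0.527 TPM, and TCF3 fell 1.3-fold, although its value relative to GAPDH counts was positive. Of 9 corepressors through which SNAI and ZEB factors act 6 (66.7%) fell and 3 did not pass (median -0.31), but relative to GAPDH counts the balance turned, with 5 higher and 2 lower. The largest fall was that of AJUBA, a LIM protein that binds SNAI factors, at 2.04-fold. Of 8 proteases that cut cadherins or EPCAM 6 were tested, ADAM17, a sheddase, and NCSTN, a subunit of γ-secretase, rose 1.57-fold and 1.58-fold, and 4 did not pass (median 0.13). Relative to HPRT1 counts ADAM17 was at 0.35 (adjusted p = 0.11) and NCSTN at 0.36 (adjusted p = 0.096), so neither passed, while relative to GAPDH counts all 6 were higher. Of 6 TGFβ ligands and receptors the coreceptor TGFBR3 rose 1.56-fold, the ligand TGFB1 and the receptor TGFBR2 fell 1.71-fold and 1.7-fold, and 3 did not pass (median -0.12). These calls all ended under one scaling, at 0.35 for TGFBR3 relative to HPRT1 counts (adjusted p = 0.19) and at -0.21 for TGFB1 and -0.20 for TGFBR2 relative to GAPDH counts (adjusted p = 0.12 and 0.30).

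**Figure D4:**
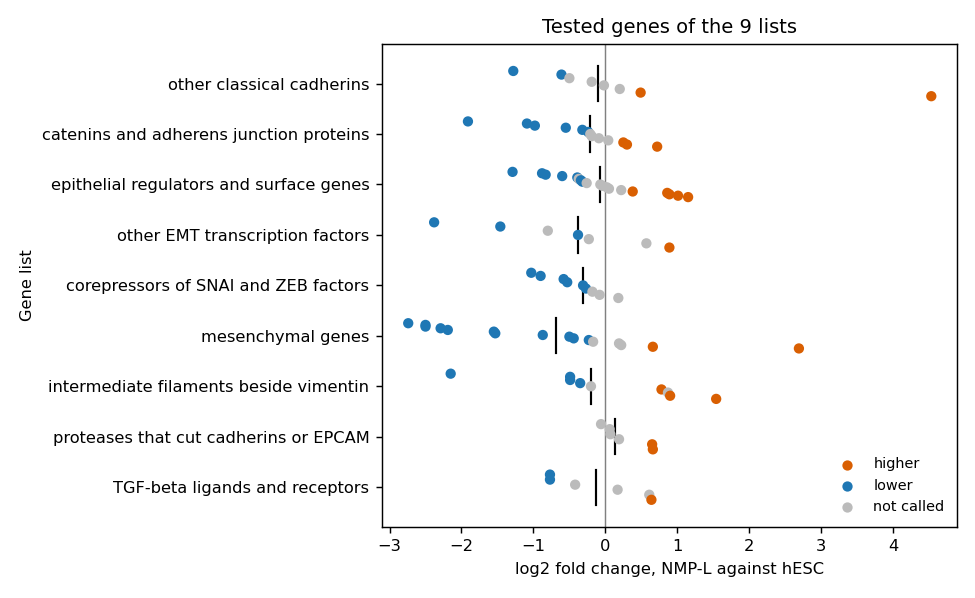
log2 fold change, NMP-L against hESC, of every tested gene in the 9 lists, with the list's median as a vertical line (orange higher, blue lower, grey not past the threshold). The mesenchymal list has the lowest median (-0.69), MMP2 lies apart from it at 2.69, and CDH10 is the point at 4.53, a fitted value over few hESC counts.

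The genes whose course over the 6 libraries lay nearest to that of CDH1, by the Euclidean distance of centred log2 CPM among 10581 genes, were EXOC6B (0.06), SPEN (0.07) and ZNF251 (0.07), with log2 fold changes of 0.24, 0.32 and 0.32. The genes nearest to CDH2 were LCP1 (0.17), HACD2 (0.18) and AMOT (0.22), each with a log2 fold change of 2.21. With 2 conditions such a distance reflects mostly the size of the change.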

How the data were processed

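Expected counts per gene from RSEM, as the authors deposited them, are not normalized between libraries. In the same table, the deposited TPM values are scaled by effective length and to 1000000 per library. The submitters' processing notes name cutadapt 1.9.1, STAR 2.5.2a, RSEM 1.3.0, DESeq2 1.12.3 and hg19, and the annotation and strand setting are not given in the sources used here. Of all genes 8.44% had a fractional count in some library, and 0 of the 10 genes did. All 12 value columns were mapped to a library by the labels, and 0 were left unused. No comparison columns of the authors were used.

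After rounding, the fit used edgeR 4.0.16 (R 4.3.3), with filterByExpr at a minimum count of 10 (15517 genes kept), TMM scaling, glmQLFit and glmQLFTest for condition, and Benjamini-Hochberg adjustment over all genes tested, with 0.05 as the threshold. A standard error is the log2 fold change divided by the square root of F. TPM was used for levels between genes and within-library shares. Exact permutation tests were two-sided on log2(CPM + 0.1). Ratios of genes near the floor of 3 counts use counts pooled over libraries with exact binomial intervals, which cover counting error only. The labels call the replicates biological without saying what was independent, so p-values measure the spread between these samples. Alternatives used DESeq2 1.42.0 and limma 3.58.1 on log2(TPM + 0.1) or log2(TPM + 1). The fit was tried on simulated counts in which few genes changed, and it recovered 91 of 100 genes changed 2-fold and 97 of 100 changed 4-fold. There were 10 false calls. With so few genes changed, the simulation does not test the scaling between the conditions. Positions are from a GENCODE annotation on GRCh37, and figures were drawn with matplotlib 3.10.9.

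The 10 genes and the lists were chosen with earlier results of these data known. From each list the text names up to 4 called genes with the largest change of at least 2-fold and at least 1 CPM, and every gene of a direction in which 5 or fewer were called, except 1 that is not reported here. ESRP1, ESRP2 and GRHL2 are named beside these, a choice made once their values had been seen. For CDH1 and CDH2 the 3 nearest of the tested genes with at least 10 CPM in the higher condition are named.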

Additional observations from a re-analysis of the deposited data

How the results depend on the processing

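The counts of 7 genes higher and 2 lower were recomputed under 17 alternatives. They were unchanged or within 1.5 times except with at least 10 counts in every library, where 3 were higher, since that filter removes SNAI2, TWIST1, ZEB1 and ZEB2. For 8 of the 10 genes neither direction nor call changed in any alternative that fitted them, the exceptions being CDH1 and SNAI1. Of the stable genes, SNAI2, TWIST1, ZEB1 and ZEB2 could only have been called higher or not at all. A stable direction is thus a result for CDH2, CDH3, EPCAM and VIM only. Relative to HPRT1 counts the log2 fold changes of CDH1, SNAI1 and AFDN were -0.02, -0.06 and -0.05, and relative to GAPDH counts those of NEFH, NEFM, NES and TCF3 were 0.06, 0.20, 0.07 and 0.18. Of the 36 list genes chosen by the naming rule, 17 kept direction and call throughout, 5 turned direction (AFDN, NEFH, NEFM, NES and TCF3), and the others lost their call relative to HPRT1 counts (among them ADAM17, CDH11, CTNNB1, GFAP, GRHL3, JUP, NCSTN, PRSS8 and TGFBR3) or GAPDH counts (CDH8, NECTIN3, TGFB1 and TGFBR2). List genes called higher numbered 47 relative to GAPDH counts and 8 relative to HPRT1 counts in place of 19, and those called lower 17 relative to GAPDH counts in place of 41. These shifts follow from the scaling, which moved the median gene by 0.56 and -0.30. With the replicate number as a block, 7560 genes were called in place of 8653, and 7 of the 10 genes were higher and 2 lower, and of the named list genes AFDN lost its call (adjusted p = 0.051). The deviations of same-numbered libraries correlated at -0.367, -0.0575 and -0.134, and 0 of 6 libraries correlated best with its own number, so the numbers were not taken to pair the cultures. The difference in the log2 ratio of CDH2 to CDH1 was 1.92, and 1.85 to 2.03 with each library left out in turn. SNAI2, TWIST1, ZEB1 and ZEB2 had at most 4 counts in any hESC library, which limits the precision of their ratios.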
